A study of Homo sapiens with 8 samples.

Results

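The subject is 4 genes, taken by name from the 1950 genes of the deposited expression table. CISH, SOCS1 and SOCS3 make proteins that damp cytokine signals in a feedback loop, and PIM1 makes a kinase. All 4 were higher in K562 cells given a plant stem extract than in cells without it. The means were 1.91-fold higher for CISH, 1.89-fold for PIM1, 1.85-fold for SOCS1 and 1.49-fold for SOCS3. In each of the 4 genes every extract library lay above every control library, as was so in 21.9% of the 750 listed genes high enough to test.

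Cytokine receptors signal through JAK kinases, which phosphorylate STAT transcription factors, and STAT5 is the member best known downstream of the erythropoietin and thrombopoietin receptors in red cell and platelet precursors. STATs switch on genes of the CISH and SOCS family, whose proteins bind receptors or JAKs through an SH2 domain and recruit a ubiquitin ligase through a SOCS box, so that the signal limits itself. PIM1 is a serine/threonine kinase that is active as soon as it is made, so its RNA and protein level largely set its activity, and it promotes survival and growth. In K562, an established line from chronic myeloid leukemia, the fusion kinase BCR-ABL keeps STAT5 active without a cytokine.

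The extract group held 4 libraries (extract 1 to 4) from K562 cells treated for 3 days with 80 µg/mL of CPM, the extract of the plant stem Caulis Polygoni Multiflori. The control group held 4 libraries (control 2 to 5) from K562 cells without CPM, and no time in culture is given for them, so that time and the extract cannot be told apart. Numbers are those of the sample titles. All 8 libraries come from 1 cell line, and the labels do not say whether a group's libraries were grown as separate cultures. The p-values therefore rest on variation among libraries that could be purely technical. Of 14 K562 and erythroid marker genes, the zeta globin gene HBZ was in the table, with values of 4952 to 5306 in extract libraries and 2834 to 2920 in control libraries, and the other markers were not analysed here.

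The highest deposited p-value in the table was 0.0499 and the smallest deposited change was 1.5-fold, so every listed gene, these 4 included, was already selected for a difference between the same libraries. Of the 750 genes with an expression value of at least 1 in at least 4 libraries, limma called 26.8% higher and 56.0% lower with the extract at an adjusted p under 0.05. All 4 genes were tested and called higher, which is to be read against that background and is no independent evidence of a difference. Across the 750 genes the median log2 change was -0.50, and across the 4 genes it was 0.80. No unit is stated for the expression values, so levels are compared between libraries and not between genes. In bulk RNA, fewer cells that express a gene and less of its RNA per cell cannot be told apart.

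The start of CISH is shown first because STAT proteins bind the palindrome TTCNNNGAA, and CISH carried this motif 4 times in the 250 bases before its RefSeq start (build GRCh38.p14, minus strand). The first pair lay from base -241 to base -222, counted from -1 next to the start, at chr3:50611996-50612015, and the second pair between bases -129 and -104. Capitals mark the matches, and the second stretch, chr3:50611832-50611907, is limited to bases outside any exon of GENCODE release 29.
CISH, bases -241 to -222: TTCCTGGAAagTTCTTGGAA
CISH, bases -133 to -58: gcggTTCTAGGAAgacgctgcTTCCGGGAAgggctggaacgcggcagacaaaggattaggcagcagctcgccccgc
The motif reads the same on both strands. At least 1 match was found in 6.57% of 35116 RefSeq windows of that length, and 4 matches in 5 windows, which belonged to 4 of 27305 genes. The first pair also lies in an exon of MAPKAPK3, a kinase gene on the other strand that overlaps the first 312 bases of CISH.

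The windows of PIM1, SOCS1 and SOCS3 held no TTCNNNGAA (0 matches each). SOCS3 had 2 RefSeq windows, whose starts lay 848 bases upstream and 410 bases downstream of the GENCODE start of the gene, so neither window was the stretch just before that start. The bases next to the starts of PIM1 (plus strand, chr6:37170052-37170151) and SOCS1 (minus strand, chr16:11256205-11256304) are shown with the other motif they shared, the GC box GGGCGG on either strand, in capitals.
PIM1, bases -100 to -1: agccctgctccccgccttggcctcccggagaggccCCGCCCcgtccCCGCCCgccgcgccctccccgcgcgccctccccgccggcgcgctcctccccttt
SOCS1, bases -100 to -1: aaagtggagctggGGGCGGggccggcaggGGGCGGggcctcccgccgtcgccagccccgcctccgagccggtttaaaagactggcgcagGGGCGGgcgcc
GC boxes were found in 42.6% of all windows, with 4 in that of PIM1, 3 in that of SOCS1, 3 in that of CISH and 0 in both windows of SOCS3. CpG pairs numbered 32 in PIM1, 27 in SOCS1, 26 in CISH and 13 and 30 in the windows of SOCS3, against a median of 11 over all windows. The motifs TATAAA (10.7% of all windows), CCAAT (32.0%) and CACGTG (6.34%), each searched on both strands, had 0 matches in the 5 windows of the 4 genes. Among listed genes with a RefSeq window, TTCNNNGAA occurred in 28 of 321 genes higher with the extract (8.72%) and in 33 of 495 genes lower with it (6.67%), against 8.09% of all genes. Higher genes as a group were thus near the share of all genes, and the presence of the motif in CISH is a description of its sequence only.

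CISH (ENSG00000114737), on chromosome 3 at 50606490 to 50611831 of GRCh38, codes for the family member that acts at phosphorylated STAT5 docking sites of cytokine receptors. Its expression values were 113.12, 115.81, 115.54 and 114.97 in extract 1 to 4, against 58.29, 60.79, 61.37 and 60.17 in control 2 to 5. The libraries of each group were close together, and the lowest extract library was 1.84 times the highest control library. CISH averaged 114.9 ± 1.21 with the extract and 60.2 ± 1.34 without it (SD, n = 4 each), a spread of 1.05% and 2.22% of the mean. The log2 change on the log2(value + 1) scale, used here for all tests of single genes, was 0.92 ± 0.029 (SE), with a 95% interval of 0.86 to 0.99 and a limma adjusted p of 9.995e-08. CISH and MAPKAPK3 share 218 annotated exon bases on opposite strands, and whether the counting used strand is not stated. MAPKAPK3 was not in the table.

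PIM1 (ENSG00000137193; chromosome 6, 37170203 to 37175426) codes for the kinase that phosphorylates, among others, the death protein BAD and the cell cycle inhibitors p21 and p27. Its values were 398.55, 415.57, 401.0 and 383.97 in extract 1 to 4, against 209.08, 205.36, 206.55 and 223.48 in control 2 to 5. Extract 4 was the lowest of the extract libraries and control 5 the highest of the control libraries, and these 2 still differed 1.72-fold. PIM1 averaged 400 ± 12.9 with the extract and 211 ± 8.39 without it (SD, n = 4 each), and its log2 change was 0.92 ± 0.036 (SE; 95% interval 0.84 to 1.00; limma adjusted p = 3.6e-07). No other annotated gene overlaps PIM1 in GENCODE 29.

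SOCS3 (ENSG00000184557; chromosome 17, 78356778 to 78360077) codes for an inhibitor of receptors of the interleukin-6 type, to which it binds together with the JAK, and it carries a kinase inhibitory region that CISH lacks. Its values were 9.19, 8.97, 9.07 and 9.09 in extract 1 to 4, against 6.19, 6.27, 5.40 and 6.50 in control 2 to 5. The extract libraries were nearly level, while control 4 lay below the other controls. SOCS3 averaged 9.08 ± 0.0902 with the extract and 6.09 ± 0.478 without it (SD, n = 4 each), a spread of 0.993% and 7.86% of the mean. Its log2 change was 0.51 ± 0.070 (SE; 95% interval 0.35 to 0.67; limma adjusted p = 0.000407), below the intervals of CISH and PIM1.

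SOCS1 (ENSG00000185338; chromosome 16, 11254405 to 11256200) codes for the inhibitor best known for blocking JAKs after interferon, also through a kinase inhibitory region. Its values were the least even of the 4 genes, with 3.56, 3.90, 3.69 and 4.04 in extract 1 to 4, against 1.5, 2.89, 2.01 and 1.80 in control 2 to 5. Control 3 was nearest to the extract libraries, at 2.89 against 3.56 in extract 1. SOCS1 averaged 3.80 ± 0.214 with the extract and 2.05 ± 0.598 without it (SD, n = 4 each), a spread of 5.63% and 29.2% of the mean. Its log2 change was 0.67 ± 0.14 (SE), with an interval of 0.35 to 0.99 that takes in the estimates of all 3 other genes, and a limma adjusted p of 0.00312. Adjusted over 60664 genes, the family of tests behind the authors' deposited adjusted p-values, the call of SOCS1 was lost (limma adjusted p = 0.252), while those of CISH, PIM1 and SOCS3 held (adjusted p = 8.08e-06, 2.91e-05 and 0.0329). Under that family 6.0% of the 750 genes were called higher. SOCS1 lies within the span of RMI2 on the opposite strand, with 0 shared exon bases, and RMI2 was not in the table.

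**Figure D1:**
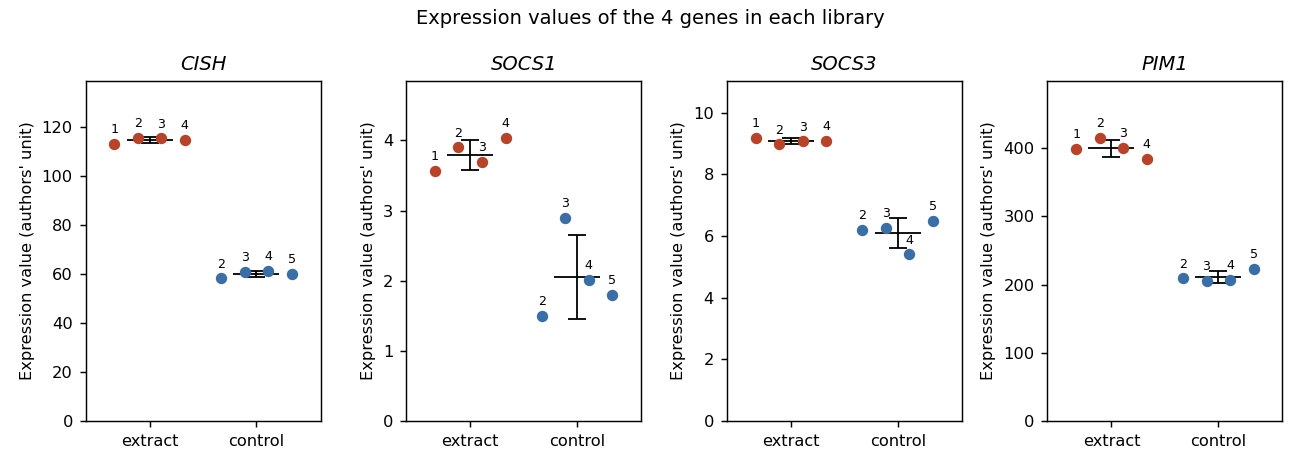
Expression values (vertical axis, the authors' unit) of CISH, SOCS1, SOCS3 and PIM1 in each library, with extract libraries in red and control libraries in blue, numbered as in the sample titles. Horizontal bars are means and error bars SD of 4 libraries; the groups do not overlap in any of the 4 genes, and SOCS1 in control 3 (2.89) comes closest.

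An exact two-sided permutation test over the 8 libraries gave p = 0.0286 for each of the 4 genes, the smallest that 4 against 4 libraries can give. Groups did not overlap, with the extract higher, in 21.9% of the 750 tested genes. By size of the rise CISH and PIM1 were 27th and 28th among the 750, SOCS1 was 78th and SOCS3 was 155th on the log2(value + 1) scale. That offset lowers the change of a low gene, and with an offset of 0.1 the change of SOCS1 was 0.90, against 0.93 for CISH and 0.92 for PIM1. By limma p among the 255 genes with a positive change, CISH was 3rd and PIM1 5th, with SOCS3 40th and SOCS1 87th.

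**Figure D2:**
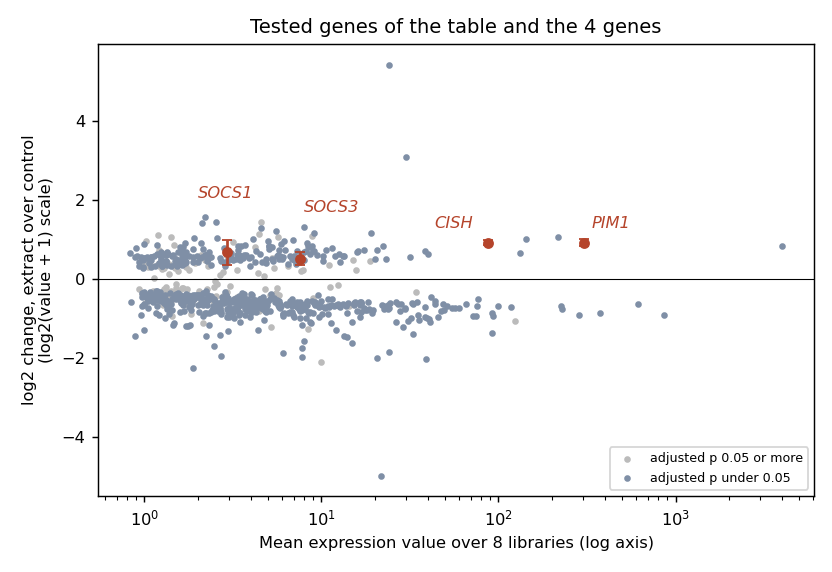
Change of each of the 750 tested genes (log2, extract over control, on the log2(value + 1) scale) against its mean expression value over 8 libraries on a log axis, with the 4 genes in red and their 95% intervals. CISH and PIM1 (both 0.92) lie above SOCS1 (0.67) and SOCS3 (0.51), and the intervals of CISH and PIM1 are narrow beside that of SOCS1.

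In the authors' deposited table the fold changes, extract over control, were 1.93 for CISH, 1.84 for PIM1, 1.82 for SOCS1 and 1.52 for SOCS3. The order of the 4 genes was that of the ratios of means above, and SOCS3 lay just past the 1.5-fold limit of listing, 823rd of the 850 higher genes by deposited fold. The adjusted p-values of the authors' deposited table were 1.44e-299 for PIM1, 5.93e-231 for CISH, 1.38e-13 for SOCS3 and 0.000314 for SOCS1, and an adjusted p under 0.05 with a higher value was given for 18.3% of the 1950 genes. By p-value of the authors' deposited table PIM1 was 4th, CISH 5th, SOCS3 72nd and SOCS1 183rd of the 850 higher genes. By deposited fold CISH was only 585th, PIM1 621st and SOCS1 631st of the 850, so most higher genes had a larger deposited fold.

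Ratios of 1 gene to another within a library do not depend on how libraries were scaled, and they were compared for all 6 pairs of the 4 genes. CISH over PIM1 was 0.279 to 0.299 in extract libraries and 0.269 to 0.297 in control libraries. The groups overlapped, with a difference of 0.01 on the log2 scale (exact permutation p = 0.771, adjusted p = 1 over the 6 pairs). CISH over SOCS3 was 12.3 to 12.9 in extract libraries and 9.26 to 11.4 in control libraries. PIM1 over SOCS3 was likewise higher in every extract library, at 42.2 to 46.3, against 32.8 to 38.3 in control libraries. The differences were 0.35 and 0.34 on the log2 scale, so these ratios were 1.28-fold and 1.27-fold higher with the extract. Both had the smallest p the design allows (exact permutation p = 0.0286), which after adjustment over the 6 pairs was 0.0857, so neither passed 0.05. With only these pairs at the smallest p, an adjusted p under 0.05 was out of reach, so the failure does not show equal rises. Both ratios share SOCS3 and are not separate results.

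The ratios to SOCS1 were dominated by its uneven control values. CISH over SOCS1 was 28.5 to 31.8 in extract libraries and 21.0 to 38.9 in control libraries, so the control range enclosed the extract range. The difference was 0.00 (exact permutation p = 1), and it was -0.17 without control 3. PIM1 over SOCS1 was 95.04 to 112 in extract libraries and 71.1 to 139 in control libraries, a difference of -0.01 (exact permutation p = 1), and -0.20 without control 3. SOCS1 over SOCS3 was 0.387 to 0.444 in extract libraries and 0.242 to 0.461 in control libraries, a difference of 0.35 (exact permutation p = 0.2, adjusted p = 0.4) that was 0.52 without control 3 and 0.21 without control 2. Without control 3 the control ratios were at most 0.372, below every extract ratio (exact permutation p = 0.0286, adjusted p = 0.0571). The outcome for this pair thus depends on 1 control library. With all 8 libraries an unequal rise of SOCS1 and any other of the 4 genes was therefore not detected, and equal rises are not shown either.

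**Figure D3:**
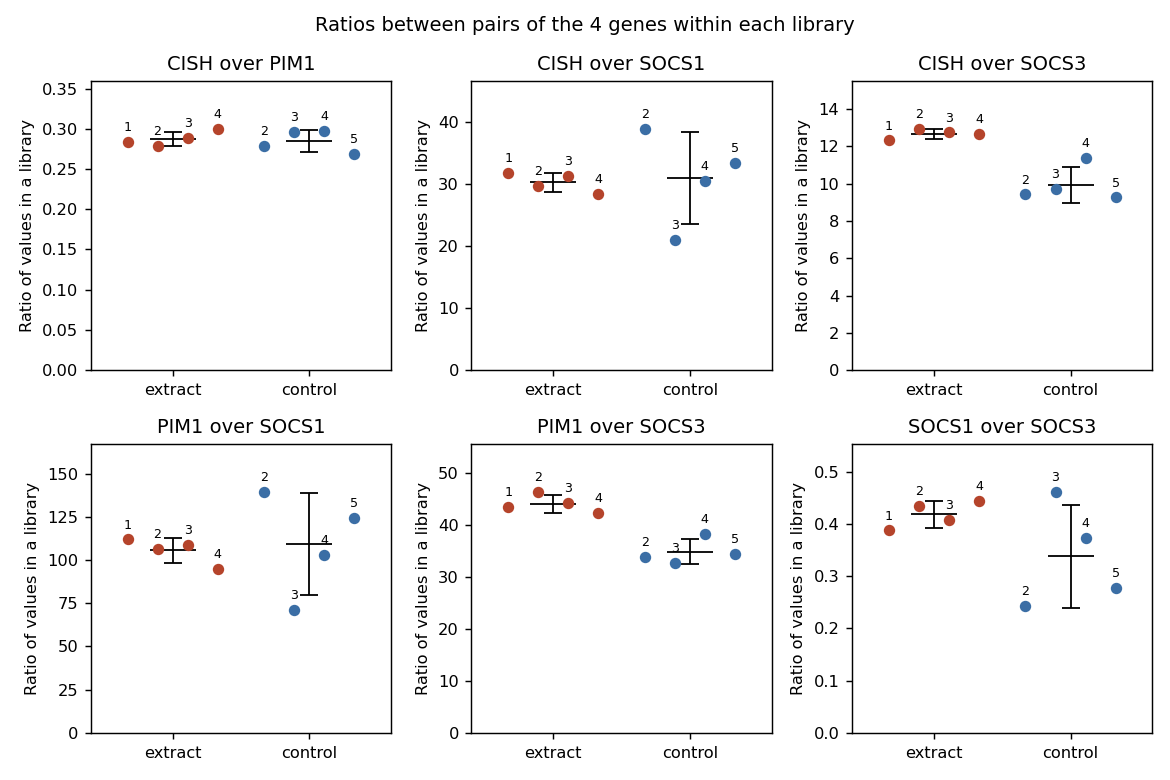
Ratio of the expression values of 2 genes within a library (vertical axis, no unit), for the 6 pairs of CISH, SOCS1, SOCS3 and PIM1, in extract libraries (red) and control libraries (blue), with means and SD of 4 libraries. CISH over PIM1 is level between groups (0.279 to 0.299 in extract and 0.269 to 0.297 in control libraries), and both ratios to SOCS3 are higher in all 4 extract libraries than in any control library.

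Likeness of profiles was measured as the root mean square difference of log2(value + 1), centred on the mean of the gene, over the 8 libraries, among 532 other tested genes with a symbol. PIM1 was the gene most like CISH and CISH the gene most like PIM1 (0.050). For both, the next were HBZ (0.058 from CISH and 0.060 from PIM1) and the heat shock gene HSPA1B (0.059 and 0.067). SOCS3 was most like FBXO10, an F-box gene (0.045), the drug efflux transporter gene ABCG2 (0.067) and the hedgehog ligand gene DHH (0.071). SOCS1 was most like IKZF4, a zinc finger factor of the Ikaros family (0.097), FTCD, an enzyme of histidine breakdown (0.12), and AGAP5 (0.14). FTCD averaged 1.25 with the extract and 0.42 without it, so it was tested only through the group where it was high. With an offset of 0.1 the log2 change of FTCD was 1.41, against 0.90 for SOCS1, so the likeness of their rises depends on the offset. SOCS1 and SOCS3 were less near to CISH, at 0.20 (45th of 532) and 0.22 (55th). The measure takes in the size of the rise as well as the spread between libraries, so genes with a similar rise come first.

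The rest of the pathway was read from 12 lists of 174 genes, of which 14 were in the table. Of the family of CISH and 7 SOCS genes, 3 were in the table, and of the 3 PIM kinases 1. Inhibitors of other kinds (12 genes of phosphatases, PIAS proteins and adaptors), the JAKs and STATs (10 genes), the partners of the SOCS-box ligase (6 genes) and BCR-ABL and its adaptors (13 genes) had 0 genes in the table. Genes not in the table were not analysed here, so whether the kinases and factors upstream of the 4 genes differed is not known. Besides the 4, 10 genes of these lists were in the table and 9 were tested, of which 3 rose and 5 fell, against 26.8% and 56.0% of all tested genes.

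Among the ligands, 2 of 23 cytokine genes were in the table, and they differed in direction. IL6, whose receptor signals through STAT3 and induces SOCS3 in many cells, had 4.25, 4.20, 3.61 and 3.17 in extract 1 to 4, against 0.77, 0.37, 0.77 and 0.55 in control 2 to 5. It rose by 1.58 ± 0.13 (log2, SE; limma adjusted p = 2.13e-05), from low control values. No control value of IL6 reached 1, so it was tested only through the group where it was high. Its p-value is therefore no independent support. CTF1, which codes for cardiotrophin-1, another ligand of that receptor family, averaged 0.838 ± 0.1 with the extract and 1.48 ± 0.217 without it (SD, n = 4 each) and fell by 0.43 (limma adjusted p = 0.00429), a call lost with median centring of the libraries (adjusted p = 0.17). CTF1 reached 1 in control libraries only, so it too was tested only through the group where it was high. Among 30 receptor genes only IL10RA, the chain of the interleukin-10 receptor that binds the cytokine, was in the table. It had 13.88, 13.34, 13.03 and 11.67 in extract 1 to 4, against 4.87, 5.61, 5.43 and 5.19 in control 2 to 5, and rose by 1.15 ± 0.075 (limma adjusted p = 8.28e-06).

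Of 23 targets of STAT5, 7 were in the table, and 5 rose and 2 fell. The 4 genes described above were among those that rose. Without them 1 rose and 2 fell, against 26.8% and 56.0% of all tested genes. The other that rose was MYC, which codes for the growth factor-responsive transcription factor and is also a substrate of PIM1. MYC averaged 295 ± 7.33 with the extract and 141 ± 2.49 without it (SD, n = 4 each), a log2 change of 1.05 ± 0.027 (limma adjusted p = 3.42e-08). The cyclin D1 gene CCND1 fell, with 17.2 ± 0.817 with the extract and 28.3 ± 0.629 without it. ID1, an inhibitor of helix-loop-helix factors, also fell, with 34.0 ± 2.80 in extract and 61.3 ± 7.95 in control libraries. Their log2 changes were -0.69 and -0.82 (limma adjusted p = 1.12e-05 and 0.000248), and the call of ID1 was lost with quantile normalization (log2 change -0.20, adjusted p = 0.0855). CCND1 stayed called, but its log2 change was -0.42 with median centring and -0.20 with quantile normalization. The median log2 change of the 7 was 0.67, that of SOCS1, but 4 of the 7 are the genes described above, so this median is no separate result.

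In the list of 18 STAT3 targets used here, SOCS3 rose and the other 2 in the table fell. Of all tested genes, 26.8% were called higher and 56.0% lower. That list left out PIM1, MYC and CCND1, which were read as targets of STAT5. CEBPB, a factor of the acute phase and of myeloid cells, averaged 5.21 ± 0.643 with the extract and 9.38 ± 2.61 without it, and its relative CEBPD averaged 2.90 ± 0.615 with it and 4.51 ± 0.752 without (SD, n = 4 each). Their log2 changes were -0.71 and -0.50 (limma adjusted p = 0.00647 and 0.0157), and both calls were lost with libraries centred on the median (adjusted p = 0.0543 and 0.2). Of 24 genes induced by interferon, SOCS1 rose and 2 others were in the table. ISG20, a nuclease, had values of 1.15 ± 0.114 in extract and 1.13 ± 0.324 in control libraries (log2 change 0.02, limma adjusted p = 0.857), although its log2 fold change was -0.63 in the authors' deposited table. OAS2, which senses double-stranded RNA, was listed at 0 in all 4 extract libraries and at 0.07, 0.02, 0 and 0.04 in control 2 to 5, and was too low to test. Of 18 substrates of PIM1 only MYC was in the table.

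**Figure D4:**
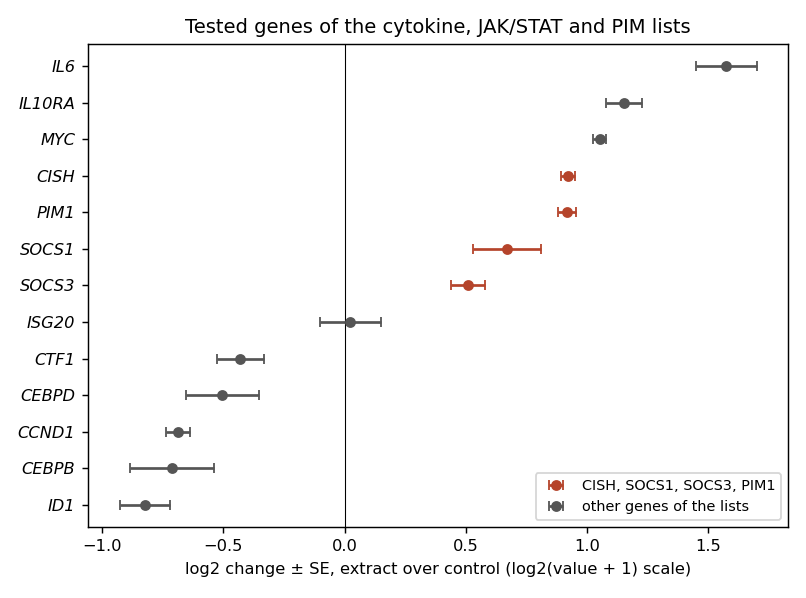
Change with the extract (log2 on the log2(value + 1) scale, horizontal axis, ± SE) of the 13 tested genes of the cytokine, JAK/STAT and PIM lists, with CISH, SOCS1, SOCS3 and PIM1 in red. The 4 genes lie between IL6 (1.58), IL10RA (1.15) and MYC (1.05) above and ISG20 (0.02) and the 5 genes that fell below.

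Some markers of other blood cells were in the table, whose genes were all selected for a difference between the groups. Of 12 megakaryocyte markers 2 were in the table, ITGA2B and GP1BB, with a summed value of 45.9 to 59.4 in extract libraries and 55.4 to 120 in control libraries. Of 11 monocyte and granulocyte markers CD68 and SPI1 were in the table, summing to 18.9 to 22.7 in extract libraries and 31.9 to 33.3 in control libraries. Of the 9 lymphocyte markers read here CD3D was in the table, at 18.5 to 22.87 in extract libraries and 40.05 to 43.78 in control libraries. All 5 genes were called lower and HBZ was called higher in limma, against 56.0% and 26.8% of all tested genes, and none was at 0 in all libraries. With quantile normalization the log2 change of CD68 was -0.17 in place of -0.58 and that of CD3D -0.49 in place of -1.07, both still called. In the authors' deposited table the log2 fold change of CD3D was smaller, at -0.66. GP1BB overlapped between groups, and the fits that left out extract 2, extract 3 or control 2 ended its call, with limma adjusted p = 0.0558 to 0.0583. The calls of ITGA2B and GP1BB were also lost with median centring (adjusted p = 0.105 and 0.171), and HBZ did not differ (log2 0.00) after quantile normalization, which gives the top gene of every library the same value. Over the family of 60664 genes the calls of ITGA2B, GP1BB, SPI1, CTF1, CEBPB and CEBPD were lost (adjusted p between 0.0871 and 1). Of 10 fibroblast and epithelial markers COL1A1 was in the table, at 0.24 to 0.36 in extract libraries and 0.47 to 0.67 in control libraries, too low to test. The part of these markers in the rise of the 4 genes was not tested.

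Scaling moved the size of the rises and not their direction. The median log2 value of the 750 tested genes was 1.90 in extract and 2.17 in control libraries, a difference of -0.27. With libraries centred on that median, 228 genes were called higher and 241 lower, in place of 201 and 420. CISH then rose by 1.19, PIM1 by 1.19, SOCS1 by 0.94 and SOCS3 by 0.78 on the log2 scale, each limma adjusted p being 0.000852 or less. The median is that of genes selected for a difference, most of them lower with the extract, so centring on it raises every rise by construction.

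**Figure D5:**
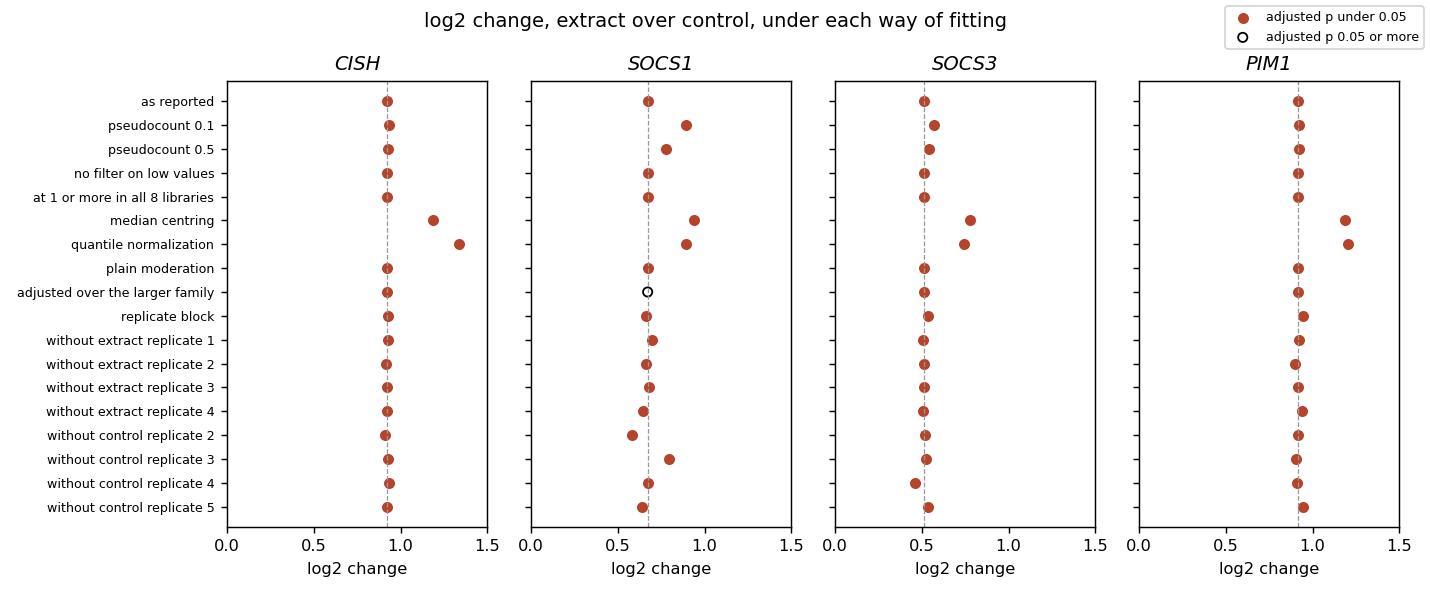
Change of CISH, SOCS1, SOCS3 and PIM1 (log2, extract over control, horizontal axis) under each way of fitting (rows), with filled points for a limma adjusted p under 0.05 and open points for others. All points are above 0, and the open point is SOCS1 with p-values adjusted over 60664 genes (adjusted p = 0.252).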

How the data were processed

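RNA of 8 libraries of K562 cells was sequenced, per the labels' protocols after TRIzol extraction and a TruSeq library kit. HISAT2, StringTie and GRCh38 appear in the submitters' processing notes, without versions or roles. The authors deposited 1 expression score per gene and library with 2 decimals, whose unit is not given in the sources used here. Reads and depth are unknown, so counting error cannot be bounded. For each gene the authors deposited a fold change (ratio) and its log2 value. They also deposited p-values, raw and adjusted, by a tool not given in the sources used here. Dividing p-values by adjusted p-values gave whole ranks (within 0.02) for 100% of 1364 usable genes with a family of 60664 genes.

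Tests used limma 3.58.1 under R 4.3.3, with trended and robust moderation, on log2(value + 1) for genes at 1 or more in at least 4 libraries, 750 of 1950, with Benjamini-Hochberg adjustment over all 750 and a threshold of 0.05. The fit was run on simulated data with as many genes raised as lowered. Most called genes of the real data were lower, so the simulation did not have this imbalance. The 4 genes, the gene lists, the tests and the alternatives were chosen with earlier results of these data known. Named genes were the 4, every listed gene of the 12 pathway lists, listed markers, and the 3 genes most like each of the 4; some genes of these lists are not reported here. Genes were located in GENCODE 29, which held 1866 of the 1950 identifiers. Promoter windows came from RefSeq (GRCh38.p14; 4 of 4 genes matched), and only the 250 bases before a start were searched. Alternatives changed the pseudocount, filter, scaling, moderation, family, block and libraries. Log2 changes understate those of low genes. Within groups, library correlations of log2 values of the tested genes were 0.938 to 0.962, and across groups 0.819 to 0.875. These genes were selected for a difference between the groups, so lower values across groups are built in.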

Additional observations from a re-analysis of the deposited data

Results flagged for a closer look

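Of 68 groups of 4 libraries, from the genes and ratios described above, 4 had a single library set apart from its 3 fellows. Chance alone would mark about 1 in 20, or 3.4. None of these groups belonged to CISH, SOCS1, SOCS3 or PIM1 or to their ratios (0 of them). CD3D was highest in extract 2, at 22.87, with the other extract libraries at 18.5 to 19.0. DHH was lowest in extract 3, at 1.88, with the others at 2.18 to 2.22. FTCD was highest in extract 3, at 1.42, with the others at 1.19 to 1.21. ID1 was lowest in control 5, at 49.46, with the other control libraries at 64.23 to 66.02.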

How the results depend on the processing

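CISH, SOCS1, SOCS3 and PIM1 were higher with the extract in all 17 alternative fits, 8 of which left out 1 library, and all 4 were called in 16 of the 17. The exception was adjustment over 60664 genes, which left 3 of the 4 called, SOCS1 at a log2 change of 0.67 with adjusted p = 0.252, and 167 of the 750 genes in place of 621. Leaving out 1 library gave log2 changes of 0.91 to 0.93 for CISH, 0.90 to 0.95 for PIM1, 0.58 to 0.80 for SOCS1 and 0.46 to 0.54 for SOCS3. A replicate block was fitted on the 6 libraries numbered 2, 3 and 4, the numbers that both groups share. The 4 changes were then 0.93, 0.95, 0.66 and 0.53 for CISH, PIM1, SOCS1 and SOCS3, all called. This fit tested 657 genes in place of 750, and its 472 calls were 141 rises and 331 falls. Deviations of same-numbered libraries correlated at 0.075, 0.075 and 0.15, and those of differently numbered libraries at -0.124 to 0.136. These values do not settle whether the numbers pair the libraries. The titles do not state a pairing, so the main fit had no block. With a pseudocount of 1 in both values, the difference between groups was 0.25 for PIM1 over SOCS1, against -0.01 without, 0.25 for CISH over SOCS1, against 0.00 (exact permutation p = 0.0571, adjusted p = 0.114), and 0.16 for SOCS1 over SOCS3, against 0.35. Without 1 library each, it was -0.20 to 0.12 for PIM1 over SOCS1, -0.17 to 0.12 for CISH over SOCS1 and -0.016 to 0.032 for CISH over PIM1, values whose sign carries no call. Of 355 alternative values of the 22 other named genes, 330 kept direction and side of the threshold, 22 lost the call and 3 changed sign: GP1BB with quantile normalization (0.019) and ISG20 without 1 library, from -0.080 to 0.10. The cause was not tested. IL6, CTF1, FTCD and ISG20 had no value in fits where too few libraries reached 1. Depth is unknown, so no limit of detection is given.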
